A study of Rattus norvegicus with 4 samples.

Results

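The 10 genes described here encode the G protein-coupled receptors through which hypothalamic and related factors act on anterior pituitary cells. They are *Ghrhr*, *Ghsr*, *Sstr2*, *Gnrhr*, *Trhr*, *Crhr1*, *Avpr1b*, *Drd2*, *Drd4* and *Adcyap1r1*, taken by symbol from the 30058 genes of a single-cell RNA sequencing table, in which all 10 were present. Cells were dispersed from anterior pituitaries of postpubertal Sprague Dawley rats, with the posterior and intermediate lobes removed beforehand, and counted with 10X Genomics 3′ chemistry. The female cells came from 1 pool of 4 pituitaries, from rats 44 days old and in diestrus, and the male cells from 1 pool of 4 pituitaries, from rats 59 days old; the labels name no genotype or treatment for either sex. Each pool was run on 2 lanes, which makes the lanes of a sex technical replicates. P-values of sex differences therefore measure lane-to-lane error only, and sex cannot be told apart from pool and age. Comparisons of cell types fit the lanes of both sexes together, so sex differences within a type add to their error.

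The table held 7861 cells and 86742346 unique molecular identifiers (UMIs, each standing for 1 captured transcript), with 18955509 to 24048021 UMIs per lane. The cell number of a lane, which is stated for each sex with the study, gave its sex. The male lanes held 2049 and 2114 UMIs of the Y-linked genes *Eif2s3y* and *Ddx3y* against 10 and 9 in the female lanes. After classification by the marker genes of the study and removal of outliers and doublets, 6839 cells were left: 1873 somatotrophs (S), 238 gonadotrophs (G), 89 thyrotrophs (T), 799 corticotrophs (C), 486 lactotrophs (L), 2312 folliculostellate cells (FSC), 361 erythrocytes (E), 549 leukocytes (Le) and 132 endothelial cells (EC). Because 5 of the receptors (*Crhr1*, *Avpr1b*, *Gnrhr*, *Trhr* and *Ghrhr*) are marker genes in the study, they were left out of the rules here, so no receptor helped to define the cells it is described in. The hormone genes are part of the rules, so their levels describe the types and are no check on the names. *Gh1* stood at 302400 UMIs, scaled to 1000000 UMIs of the type, in S. *Prl* stood at 270500 in L, *Pomc* at 201300 in C and *Lhb* at 60970 in G. Among T, the median cell held 39.5 *Tshb* UMIs in females and 1064 in males, so the female T were weakly marked. Without cells that were given a type by their nearest neighbours, 27 female and 46 male T were left, against 40 and 49. In total, 30 barcode sequences occurred in more than 1 lane, 25 of them among final cells.

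The hypothalamus controls the anterior pituitary through factors released into portal blood. Growth hormone-releasing hormone, gonadotropin-releasing hormone, thyrotropin-releasing hormone, corticotropin-releasing hormone and vasopressin stimulate hormone release, whereas somatostatin and dopamine inhibit it. The receptors for growth hormone-releasing hormone, corticotropin-releasing hormone and pituitary adenylate cyclase-activating polypeptide (PACAP) act mainly through Gs and cAMP. Those for gonadotropin-releasing hormone, thyrotropin-releasing hormone, vasopressin and ghrelin act mainly through Gq and calcium, and those for somatostatin and dopamine through Gi and Go.

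Among the final cells, each receptor had most of its UMIs in 1 or 2 types, and few were found in cells of blood and vessels. A cell was counted as expressing a gene above an Otsu threshold, which splits the log10 normalized counts of all final cells into a low and a high group. The threshold was set for each gene, from 0.118 for *Ghsr* to 0.465 for *Gnrhr*, so shares of different receptors rest on different limits. Levels are in CPM, the UMIs of a gene scaled to 1000000 UMIs of the cell type. *Gh1*, *Prl* and *Pomc* fill much of the libraries of S, L and C, which lowers the CPM of other genes in these types. Of the 90 combinations of a receptor and 1 of the 9 cell types, 14 had at least 5% of cells expressing. The type that held most of a receptor's UMIs was S for *Ghrhr* (98.7%), *Ghsr* (94.4%) and *Sstr2* (89.5%), and G for *Gnrhr* (96.2%). It was C for *Crhr1* (98.8%) and *Avpr1b* (90.3%), L for *Drd2* (89.7%) and *Drd4* (77.0%), and FSC for *Adcyap1r1* (89.3%). *Trhr* was divided between L, with 48.3%, and T, with 45.4%. These shares are of the UMIs in final cells, grow with the number of cells of a type and are not levels. Melanotrophs, cells of the intermediate lobe outside the final cells, held 126 *Drd2* UMIs, beside 370 in all final cells. In CPM, *Sstr2* stood at 36.5 in T and 19.2 in S, and *Trhr* at 78.0 in T and 13.3 in L. Among the 1042 cells of E, Le and EC, which serve here as a background from free RNA, between 0 (*Sstr2*) and 11 (*Gnrhr*) held any UMI of a receptor, and the highest share in any of these types was 2.27% (*Gnrhr* in EC). The median depth was 8246 UMIs in E, 6483 in Le and 7335.5 in EC, against 6892 in FSC, 11474 in C, 10133.5 in G, 10581 in T, 13671 in S and 10147.5 in L.

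**Figure D1:**
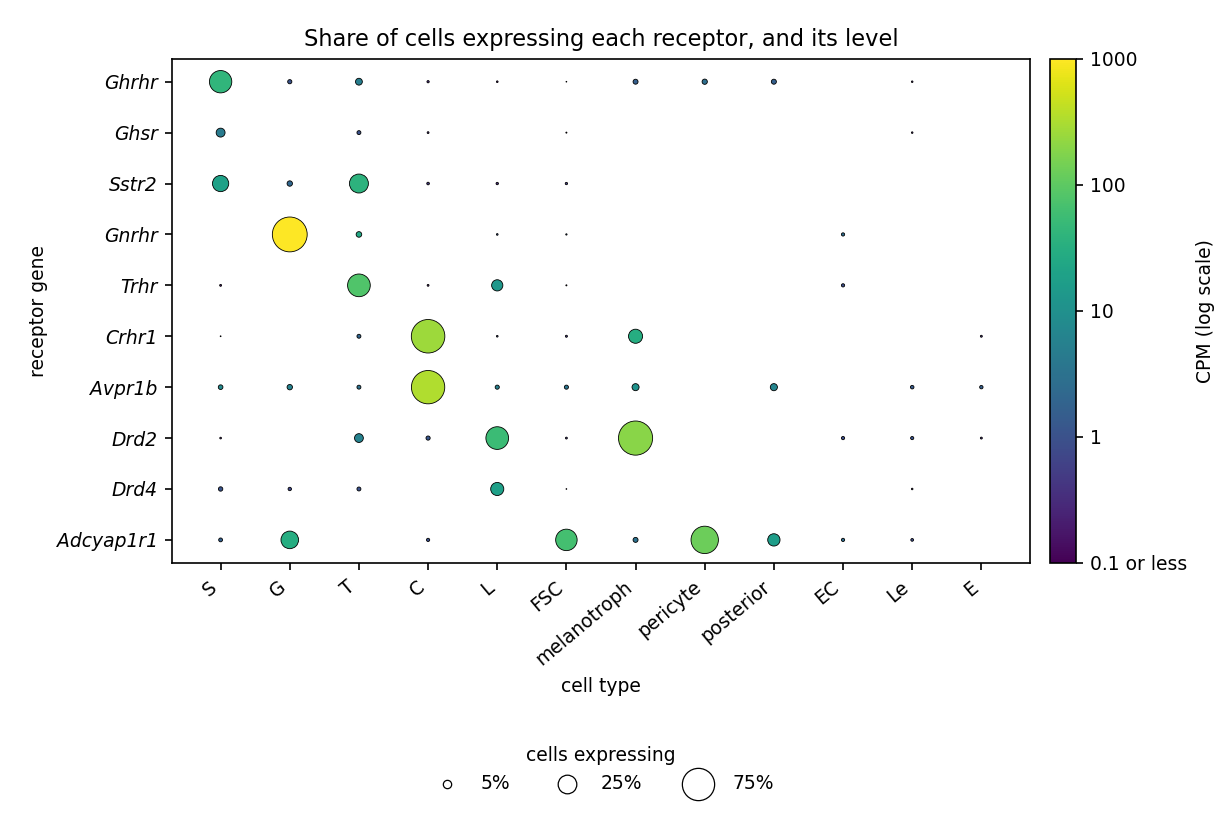
Each circle gives a receptor (rows) in a cell type (columns); its area is the share of cells expressing the receptor and its colour the level in CPM on a log scale, over all 4 lanes. *Gnrhr* in G (87.4% of cells), *Crhr1* (80.9%) and *Avpr1b* (80.0%) in C and *Drd2* in melanotrophs (83.9%) have the largest circles. The rows are otherwise nearly empty outside 1 or 2 types, except that of *Adcyap1r1*, with circles in pericytes, FSC and G.

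Sums of UMIs per cell type and lane were compared between the 6 pituitary types with edgeR's quasi-likelihood test, each type against the mean of the other 5, at a Benjamini-Hochberg adjusted p below 0.001. The standard error (SE) given with an edgeR value is the size of the log2 difference divided by the root of its F statistic. It was not taken from the fit itself and is unreliable where the difference is near 0. Of the 10 receptors, 8 passed the filter on low counts, and *Drd4* and *Ghsr* did not. There were 11 combinations in which a receptor was higher in a type: 1 in FSC, where 27.4% of all genes tested were called higher, and 2 each in C (12.6% of all genes), G (7.53%), T (4.26%), S (12.1%) and L (10.8%). The contrasts of *Trhr* in FSC, C and S, of *Drd2* in FSC and S and of *Crhr1* in T gave no usable error (SE above 5). An absent call there is not read as an equal level.

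Somatotrophs expressed receptors for growth hormone-releasing hormone, ghrelin and somatostatin. *Ghrhr*, the receptor that drives growth hormone release, was expressed in 36.0% of S (95% interval 33.8 to 38.2). Its level was 55.0 and 54.4 CPM in the female lanes and 33.8 and 33.2 in the male lanes, so every female lane stood above every male lane. Over all lanes it was 42.0 CPM in S and 4.94 in T, the next type. The value in T rests on 0 UMIs in each female lane and 1 and 4 in the male lanes. *Ghrhr* in S exceeded each of the other 5 types (log2 fold change over T 3.48, SE 0.507, adjusted p = 5.66e-06), and over their mean the log2 fold change was 6.50 (SE 0.249). Below S, no neighbouring types in the order of levels differed beyond the limit. An expressing S cell held 1.57 *Ghrhr* UMIs on average, and only 7.58% of S held one after every cell had been thinned to 2000 UMIs, so the share of 36.0% depends on depth.

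*Ghsr*, the receptor for ghrelin, was rare: 5.71% of S expressed it (95% interval 4.71 to 6.86). The lanes held 5.61 and 6.66 CPM in females and 3.03 and 3.60 in males. Its 117 UMIs in S were spread over 110 cells, with no more than 3 in a cell. In a comparison with the sum of the other 5 types, chosen after seeing the data, *Ghsr* was higher in S (log2 fold change 5.24, SE 0.564, adjusted p = 9.76e-05), where 14.4% of all genes tested were called higher. In G and L 0 UMIs were found, which allows up to 1.06 CPM in G and 0.476 in L.

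*Sstr2*, a somatostatin receptor, was shared by T and S. In T it was expressed in 25.8% of cells, with lanes at 39.2 and 27.5 CPM in females and 42.1 and 34.0 in males. In S it was expressed in 19.0%, with 14.5 and 15.2 in the female and 23.0 and 21.5 in the male lanes. In CPM, which *Gh1* lowers in S, the lanes of T lay above the lanes of S. The fitted difference did not pass the limit (T over S log2 0.46, SE 0.263, adjusted p = 0.239). Both types exceeded the mean of the other types, with log2 fold changes of 4.48 (SE 0.333) for T and 3.92 (SE 0.193) for S. S exceeded G, the next type, by 3.38 on the log2 scale (SE 0.369, adjusted p = 2.62e-08).

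Because these 3 receptors share the somatotrophs, the 250 bases before their annotated starts are shown, to let their base composition and motifs be compared. They are RefSeq promoter sequences of the GRCr8 assembly, which is later than Rnor6, the build of the authors' reference, on the plus strand: *Ghrhr*, which has 2 starts, at chr4:85830236-85830485 and chr4:85849655-85849904, *Ghsr* at chr2:112196908-112197157 and *Sstr2* at chr10:99163103-99163352. Capitals mark the CRE motif (TGACGTCA) in *Sstr2* and the PITX motif (TAATCC, or GGATTA on the other strand) in *Ghsr*.
Ghrhr start 1: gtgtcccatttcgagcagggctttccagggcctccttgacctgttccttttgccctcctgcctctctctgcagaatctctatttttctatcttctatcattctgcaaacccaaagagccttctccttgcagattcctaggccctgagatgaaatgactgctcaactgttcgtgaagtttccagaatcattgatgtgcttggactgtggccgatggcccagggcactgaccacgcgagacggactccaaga
Ghrhr start 2: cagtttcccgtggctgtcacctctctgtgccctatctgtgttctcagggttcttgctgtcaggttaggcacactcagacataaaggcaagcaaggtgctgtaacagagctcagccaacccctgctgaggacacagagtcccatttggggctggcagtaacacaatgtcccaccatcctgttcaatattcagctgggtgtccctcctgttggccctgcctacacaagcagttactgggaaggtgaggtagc
Ghsr: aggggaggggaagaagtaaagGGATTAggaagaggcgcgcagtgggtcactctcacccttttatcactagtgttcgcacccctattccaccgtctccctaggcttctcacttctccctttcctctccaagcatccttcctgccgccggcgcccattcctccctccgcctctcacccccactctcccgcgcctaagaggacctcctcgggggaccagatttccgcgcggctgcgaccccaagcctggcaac
Sstr2: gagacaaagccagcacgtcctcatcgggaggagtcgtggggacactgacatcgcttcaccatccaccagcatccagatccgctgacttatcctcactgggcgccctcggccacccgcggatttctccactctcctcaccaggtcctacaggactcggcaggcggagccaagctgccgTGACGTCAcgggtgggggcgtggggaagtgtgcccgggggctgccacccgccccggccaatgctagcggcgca
The GC content was 51.2% and 54.0% for *Ghrhr*, 61.6% for *Ghsr* and 66.4% for *Sstr2*, against a median of 51.2% over 33469 promoters. The CRE match in *Sstr2* starts 73 bases before the annotated start, and 1.59% of all promoters hold this motif. The PITX match in *Ghsr* starts 229 bases before the start, and 6.34% hold that motif. The POU1F1 motif (ATGNATA on either strand, held by 8.73% of promoters) was in none of the 11 entries that matched 9 of the 10 receptors; *Trhr* had no entry. A match is a description of these letters only.

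Gonadotrophs were marked by *Gnrhr*, the receptor for gonadotropin-releasing hormone. It was expressed in 87.4% of G (95% interval 82.5 to 91.3), and 72.3% of G still held a UMI after thinning. Its level was 890 and 998 CPM in the female lanes and 964 and 1123 in the male lanes, which overlap. An expressing G cell held 13.2 *Gnrhr* UMIs on average. *Gnrhr* in G exceeded each other type (log2 fold change over the mean of the others 8.72, SE 0.182, and over T 5.32, SE 0.335, adjusted p = 7.06e-14). The level of 24.7 CPM in T rests on few cells: of 25 UMIs in T, 16 came from 1 female cell that also held 46 *Lhb* UMIs. Without that cell, left out after its values were seen, the level in T was 9.05.

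Thyrotrophs and lactotrophs carried *Trhr*, the receptor for thyrotropin-releasing hormone. In T it was expressed in 37.1% of cells (95% interval 27.1 to 48.0), 17.5% of female and 53.1% of male T. The lanes held 39.2 and 38.5 CPM in females and 107.9 and 80.3 in males. In L it was expressed in 9.05% (6.66 to 12.0), with 16.9 and 9.06 in the female lanes and 10.9 and 17.6 in the male lanes. T exceeded L by 1.84 on the log2 scale (SE 0.373, adjusted p = 0.000572), and L exceeded the next type, C, by 6.11 (SE 0.611, adjusted p = 4.72e-09). Against the mean of the other types the log2 fold changes were 7.19 (SE 0.413) for T and 4.97 (SE 0.409) for L. When L was compared with the sum of the other 5 types, among them T, its log2 fold change of 3.75 did not pass the limit (adjusted p = 0.00244), where 1.65% of all genes tested were called higher. In G 0 *Trhr* UMIs were found, which allows up to 1.06 CPM. G is part of the mean of the other types, so the size of the fold changes over that mean is not firm.

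Corticotrophs expressed both receptors for the factors that drive adrenocorticotropic hormone release, at nearly the same shares. *Crhr1*, the receptor for corticotropin-releasing hormone, was expressed in 80.9% of C (95% interval 77.9 to 83.5) and *Avpr1b*, a vasopressin receptor, in 80.0% (77.0 to 82.7). The lanes held 275 and 262 CPM of *Crhr1* in females and 257 and 260 in males. For *Avpr1b* they held 332 and 280 in females and 357 and 359 in males. Both exceeded each other type, *Crhr1* with a log2 fold change of 8.41 (SE 0.168) and *Avpr1b* with 5.96 (SE 0.172) over the mean of the other types. Expressing C cells held 3.70 *Crhr1* and 4.77 *Avpr1b* UMIs on average, and 40.8% and 44.3% of C held a UMI after thinning. Outside C, *Crhr1* was at or below 1.97 CPM in the other pituitary types. *Avpr1b* had a low level in each of them, from 2.96 in T to 8.01 in S, and it was found in 1.39% of E. These UMIs were spread over 106 cells in S and 18 in L, with 1 S cell holding 19 of 210 and 1 L cell 11 of 34.

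The promoters of this pair are shown for the same comparison, *Crhr1* at chr10:89539959-89540208, from the entry listed before a near-identical one, and *Avpr1b* at chr13:45598513-45598762 (RefSeq, GRCr8, plus strand). Capitals mark the PITX motif in *Avpr1b*, which starts 178 bases before the annotated start.
Crhr1: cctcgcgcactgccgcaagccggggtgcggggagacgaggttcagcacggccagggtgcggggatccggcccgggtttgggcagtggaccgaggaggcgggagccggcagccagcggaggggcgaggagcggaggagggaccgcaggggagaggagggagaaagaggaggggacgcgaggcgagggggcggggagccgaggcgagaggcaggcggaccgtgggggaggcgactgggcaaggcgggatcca
Avpr1b: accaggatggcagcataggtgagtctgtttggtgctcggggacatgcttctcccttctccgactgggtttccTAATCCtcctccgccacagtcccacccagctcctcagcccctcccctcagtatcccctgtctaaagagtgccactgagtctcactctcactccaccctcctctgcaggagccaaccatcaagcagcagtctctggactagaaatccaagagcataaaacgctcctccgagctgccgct
The GC content was 75.2% for *Crhr1* and 57.2% for *Avpr1b*, so 2 genes with their highest level in the same pituitary type differed in the base composition of this stretch. None of the 3 motifs searched was in the *Crhr1* stretch.

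Lactotrophs expressed the dopamine receptors *Drd2* and *Drd4*. *Drd2*, through which dopamine inhibits prolactin release, was expressed in 37.0% of L (95% interval 32.7 to 41.5). Its level was 45.9 and 45.3 CPM in the female lanes and 76.3 and 57.0 in the male lanes. *Drd2* in L exceeded each other type (log2 fold change over the mean of the others 6.88, SE 0.239, and over T 3.63, SE 0.430, adjusted p = 1.65e-07). In T, 5.62% of cells expressed it, at 5.92 CPM. This rests on 1 and 3 UMIs in the female and 0 and 2 in the male lanes, and no T cell held one after thinning. In G 0 UMIs were found, with the same limit of 1.06 CPM, so the size of the fold change over the mean of the others is not firm. *Drd4*, a receptor of the same family that also acts through Gi, was expressed in 12.3% of L. The female lanes held 51 and 61 *Drd4* UMIs and the male lanes 0 and 2. In S 1.39% of cells expressed *Drd4*, with 3 and 1 UMIs in the female and 15 and 10 in the male lanes.

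*Adcyap1r1*, the receptor for PACAP, differed from the other receptors among the 6 pituitary types. Its highest level over all lanes was in a type that makes no pituitary hormone. In males it stood higher in G than in that type. Pericytes, which entered no test, stood above all 6 types, at 127.5 CPM. The receptor was expressed in 33.2% of FSC (95% interval 31.3 to 35.1), the supporting cells of the gland, and in 22.3% of G. The lanes of FSC held 67.7 and 64.6 CPM in females and 63.2 and 64.5 in males. Those of G held 5.12 and 4.23 in females and 80.3 and 87.5 in males. FSC and G did not differ beyond the limit over all lanes (FSC over G log2 0.95, SE 0.362, adjusted p = 0.0274). The gap between the sexes in G is part of the error of that comparison. Against the mean of the other types the log2 fold changes were 4.87 (SE 0.326) in FSC and 3.73 (SE 0.498) in G. Against the sum of the other 5 types, most of whose *Adcyap1r1* UMIs are those of FSC, G was not called (log2 fold change 0.47, adjusted p = 0.542), where 5.06% of all genes tested were called higher.

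Cells that the study set aside by their marker genes also held receptors. The 56 melanotrophs, cells of the intermediate lobe of which 54 were male, expressed *Drd2* in 83.9% (95% interval 71.7 to 92.4), at 197.5 CPM, and *Crhr1* in 14.3%, at 29.8. *Drd2* stood at 207 and 200 CPM in the male lanes, and 0 UMIs were found in the 2 female cells. Among 50 pericytes, 54.0% expressed *Adcyap1r1*, at 127.5 CPM (95% interval 93.3 to 170). These groups entered no test.

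Between the sexes, 3 of 15 combinations of a receptor and a type that passed the filter on low counts differed in the edgeR quasi-likelihood test of 2 female against 2 male lanes: *Adcyap1r1* in G, *Ghrhr* in S and *Drd4* in L. The share of all genes called was 4.28% in G, 9.52% in S, 16.7% in L, 2.48% in FSC, 0.593% in C and 0.447% in T. Female and male lanes that do not overlap are only described here, since 2 lanes per sex separate easily. Their share over all genes was not counted. *Sstr2* in FSC separated in this way on 4 female and 6 male UMIs.

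*Adcyap1r1* was higher in male G, where 52.2% of cells expressed it against 3.42% in females. All male lanes lay above all female lanes, and the ratio of male to female CPM was 18.0 (95% counting interval 8.99 to 40.8). The log2 difference was 3.86 (SE 0.361, adjusted p = 3.49e-06). Female G were the deeper cells, with a median of 12640.5 UMIs against 8987.5 in males, and after thinning 14.1% of male and 1.37% of female G held a UMI. In FSC the same receptor gave a log2 difference of -0.09 (SE 0.0844, adjusted p = 0.584). The sex difference in G exceeded the mean of those in the other 5 types by 5.16 on the log2 scale (SE 0.981, adjusted p = 0.000305), where 1.37% of all genes were called. That mean gives equal weight to types almost without *Adcyap1r1*, such as L, at 0.476 CPM, and T. The only UMI in T lay in female lane 2, so T held none when lane 2 was left out. In that comparison the share of all genes called was 1.39% for FSC, 0.369% for C, 0.804% for T, 1.03% for S and 6.52% for L. *Drd4*, *Ghsr*, *Trhr* and *Drd2* gave no usable error there in any type. Nor did some contrasts of *Ghrhr* (among them S), *Crhr1* and *Avpr1b*, so an absent call is not read as an equal sex difference. *Adcyap1r1* in G was the only receptor called. Its call was lost without lane 1 (adjusted p = 0.00175), without lane 2 (adjusted p = 1) without lane 4 (adjusted p = 0.00117) and with the cell type rules of the study as written (log2 3.96, adjusted p = 1). Against the sum of the other types the difference was 4.02 (SE 0.351, adjusted p = 7.74e-08), where 1.74% of all genes were called.

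*Drd4* was higher in female L, where 25.9% of cells expressed it against 0.388% in males. The ratio of female to male CPM was 27.4 (95% counting interval 7.4 to 229) and the log2 difference fell by 5.28 from females to males (SE 0.537, adjusted p = 8.21e-10). Female L were deeper, with a median of 18171.5 UMIs against 7253.5, and after thinning 7.46% of female L still held a UMI. In S the UMIs stood the other way, with a male to female ratio of 4.23 (1.46 to 16.7). Against the sum of the other 5 types, a comparison chosen after seeing the data, the sex difference was -7.08 for L (SE 0.964, adjusted p = 3.42e-06), where 8.27% of all genes were called, and 6.95 for S (SE 0.792, adjusted p = 7.76e-07), where 3.93% were called. The value for S mirrors that for L, because L is in the sum that S is compared with.

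*Ghrhr* was lower in male S. The ratio of female to male CPM was 1.63 (95% counting interval 1.45 to 1.84) and the log2 difference was -0.76 (SE 0.0887, adjusted p = 4.21e-07). Male S were deeper, with a median of 15528 UMIs against 11565, and the share expressing was 37.7% in females and 34.4% in males. In cells thinned to 2000 UMIs the log2 difference of *Ghrhr* was -0.62 and not called (adjusted p = 0.102), and *Adcyap1r1* in G and *Drd4* in L had too few UMIs there to be tested. The other receptors of S did not pass the limit: *Sstr2* stood at a log2 difference of 0.53 (SE 0.135, adjusted p = 0.00486) and *Ghsr* at -0.93 (SE 0.272, adjusted p = 0.0129). For both, the female and male lanes did not overlap, which is a description only.

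**Figure D2:**
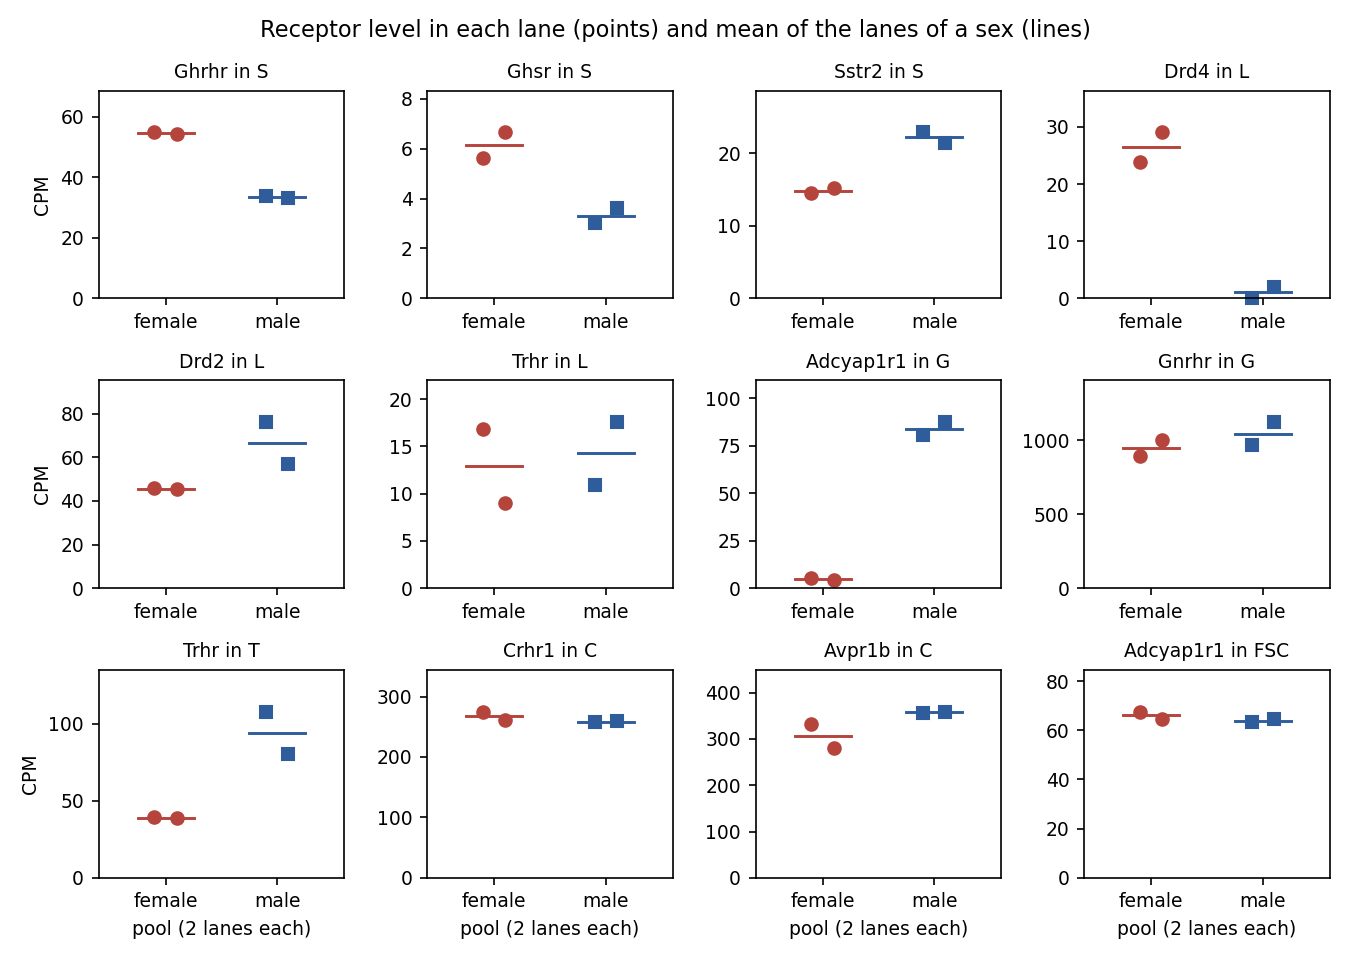
CPM in each lane (points; vertical axis from 0, own scale in each panel) for 12 combinations of receptor and cell type, with lines at the mean of the 2 lanes of a sex. The lanes of the sexes are far apart for *Adcyap1r1* in G, *Ghrhr* and *Drd4*, with *Drd4* at 0 and 2.07 CPM in male L, and also apart for *Ghsr* and *Sstr2* in S, *Drd2* in L, *Trhr* in T and *Avpr1b* in C; the lanes of the sexes overlap for *Gnrhr* in G and *Trhr* in L, and for *Crhr1* in C (257 to 275) and *Adcyap1r1* in FSC (63.2 to 67.7) all 4 lanes are close without overlap.

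The other combinations gave differences that the test did not call, and the intervals leave room for change. For *Trhr* in T the log2 difference was 1.38 (SE 0.425, adjusted p = 0.112), with a male to female ratio of 2.45 (95% counting interval 1.32 to 4.98), and all male lanes lay above all female lanes. The 40 female T were shallower than the 49 male T, with a median of 6199.5 UMIs against 14346, and held fewer *Tshb* UMIs, and the part of this in the *Trhr* values was not tested. Against the sum of the other 5 types, among them L, the sex difference of *Trhr* in T was 2.51 (SE 0.592, adjusted p = 0.0186, where 0.439% of all genes were called). *Gnrhr* in G was at -0.12 (SE 0.114, adjusted p = 0.564), *Crhr1* in C at -0.11 (SE 0.0689, adjusted p = 0.608) and *Avpr1b* in C at 0.17 (SE 0.0675, adjusted p = 0.294). *Adcyap1r1* in FSC against the sum of the other types gave -1.52 (SE 0.264, adjusted p = 0.000663), where 2.73% of all genes were called, but that sum contains G.

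The scaling decided the sign for *Drd2* in L. In CPM the male lanes stood above the female lanes (ratio 1.47, 95% counting interval 1.18 to 1.84), and with library size in place of TMM factors the log2 difference was 0.565 (adjusted p = 0.00725). With TMM factors, which are set by the bulk of genes, it was -0.09 (SE 0.177, adjusted p = 0.728). The same change of scaling moved the median of all genes in L from 0.0188 to 0.673, while *Prl*, which fills much of these libraries, was lower in males (log2 difference -1.46, SE 0.0298). With TMM factors, *Drd2* thus stood at -0.09 beside a median of 0.0188 over all genes in L.

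**Figure D3:**
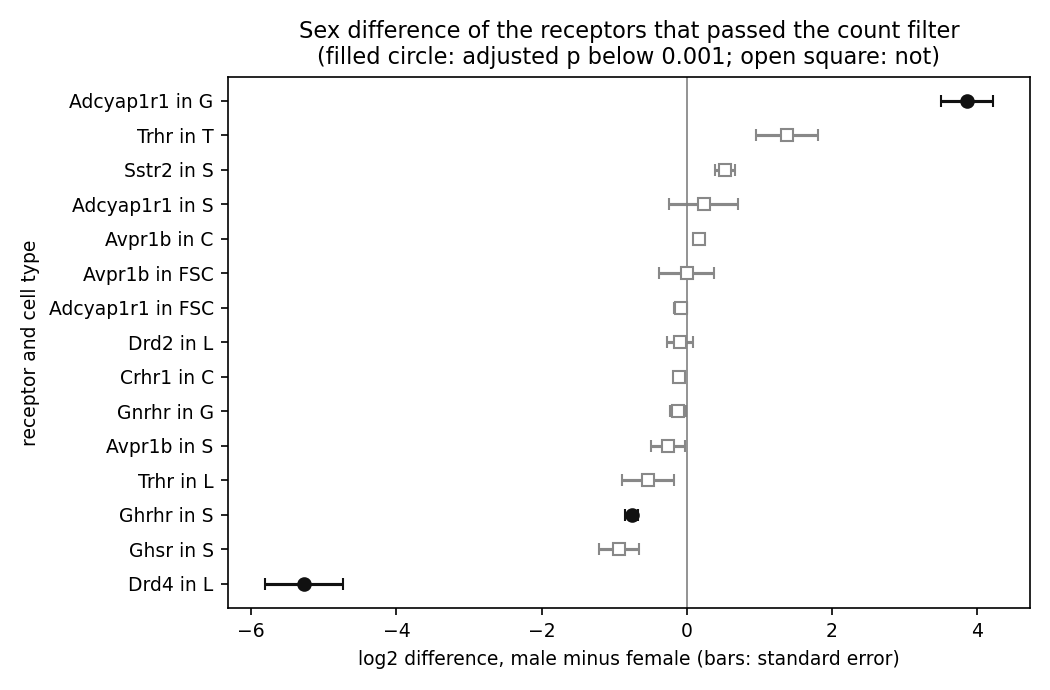
Log2 difference, male minus female, for the 15 combinations of receptor and cell type that passed the count filter. Bars give the SE, worked back from the log2 difference and its F statistic. The 3 filled circles are *Drd4* in L at -5.28, *Ghrhr* in S at -0.76 and *Adcyap1r1* in G at 3.86; the open squares did not pass an adjusted p of 0.001.

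Cells differed in how many of the 10 receptors they expressed. In C, 65.1% of cells expressed 2 receptors and 2.13% expressed 3 or more. In FSC, 34.1% expressed 1, and 0.822% expressed 2. In G, 6.16% of female and 43.5% of male cells expressed 2, which follows the sex difference of *Adcyap1r1*. No receptor was found above its threshold in 47.8% of S, 49.2% of L and 47.2% of T, against 98.6% of E, 97.4% of Le and 97.0% of EC. These shares depend on depth: after thinning to 2000 UMIs the mean number of receptors with a UMI per cell was 0.86 in C, 0.798 in G, 0.144 in S, 0.183 in L and 0.169 in T.

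**Figure D4:**
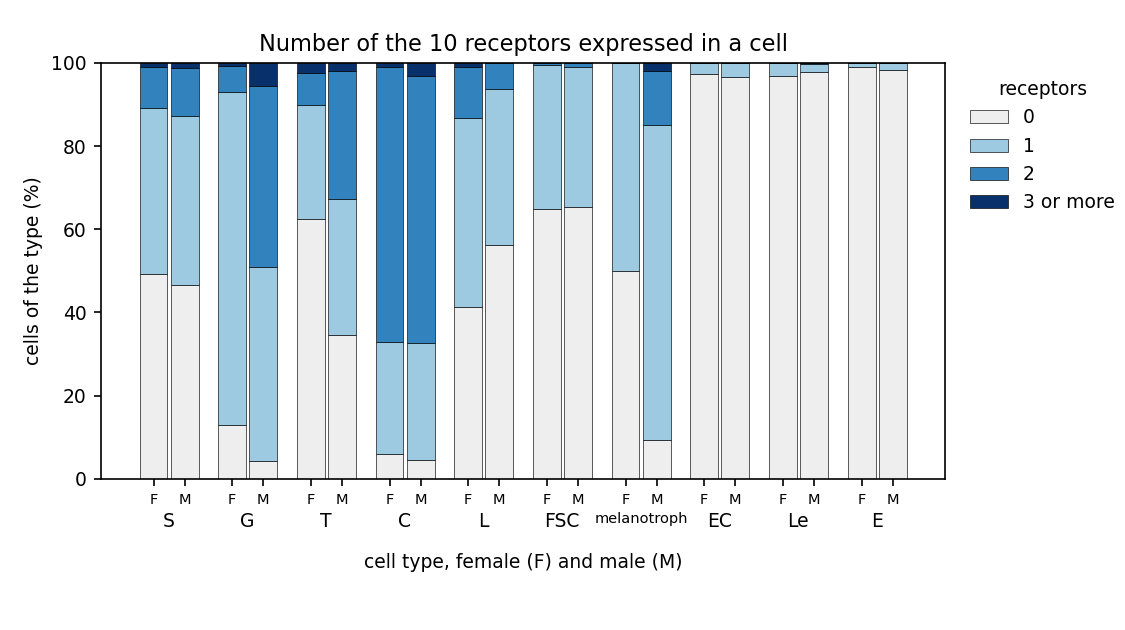
Share of cells (vertical axis, percent) that express 0, 1, 2 or 3 or more of the 10 receptors in female (F) and male (M) cells of each type. C is mostly at 2 receptors in both sexes, G moves from 6.16% at 2 receptors in females to 43.5% in males, and E, Le and EC are nearly all at 0.

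The share of cells expressing both receptors of a pair was set beside the product of their shares, and the pairs differed in how close these were. In C, 66.1% of cells expressed both *Crhr1* and *Avpr1b*, where the product is 64.7%. In S, 7.96% expressed both *Ghrhr* and *Sstr2* against 6.84%, and 2.24% both *Ghrhr* and *Ghsr* against 2.06%. In female S the share with *Ghrhr* and *Sstr2* was 7.07% against 5.38%, and in male S 8.73% against 7.99%. In L, 4.53% expressed both *Drd2* and *Drd4* against 4.57%, and 4.12% both *Drd2* and *Trhr* against 3.35%. The latter excess came mostly from lane 4, with 7.09% against 3.73%, while the other lanes had 2.88% to 3.23% against 2.11% to 4.01%. In male G, 46.7% expressed both *Gnrhr* and *Adcyap1r1* against 47.1%. In T, 16.9% expressed both *Trhr* and *Sstr2* against 9.58%, but each was expressed in a larger share of male than of female T. In male T the values were 24.5% against 17.3%, and in the 40 female T 7.5% (3 cells) against 3.06%. T cells with *Trhr* were the deeper ones, with a median of 14346 UMIs against 7302 in those without. Cells share their depth in each of these pairs, so the shares are a description.

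**Figure D5:**
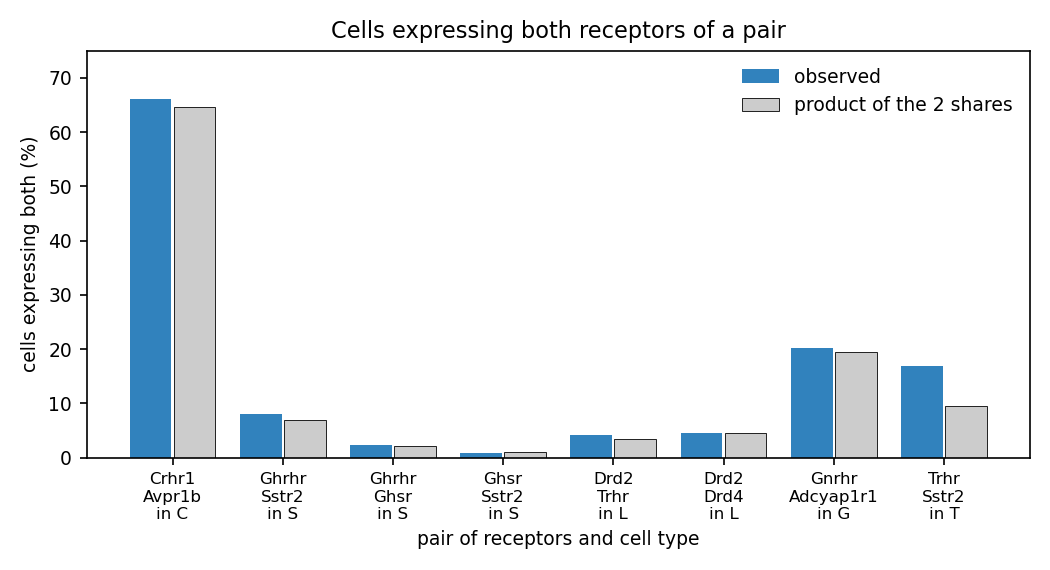
Share of cells (percent) of a type expressing both receptors of a pair (filled bars), beside the product of the 2 shares (grey bars), over all 4 lanes. The bars are close for *Crhr1* and *Avpr1b* in C (66.1% and 64.7%) and farthest apart in proportion for *Trhr* and *Sstr2* in T (16.9% and 9.58%).

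The genes whose pattern was most like that of each receptor were found by Pearson's correlation of log2 CPM, with 5 added, over the 36 sums of a cell type and lane and 16356 genes. These sums share libraries and hold few distinct cell types, so the values describe likeness only. *Gh1* and *Pomc* also helped to set S and C, so their likeness to receptors of these types follows in part from the rules. *Gnrhr* was nearest to *Nr5a1* (0.989), a transcription factor of gonadotrophs, *Dusp15* (0.982) and *Defb24* (0.979). *Crhr1* was nearest to *LOC102551166* (0.993), *Doc2g* (0.989) and *Amtn* (0.989), and *Avpr1b* to *Doc2g* (0.972), *RGD1305627* (0.965) and *Pomc* (0.962), the hormone precursor of corticotrophs. *Ghrhr* was nearest to *Gh1* (0.946), the growth hormone gene, *Mir551b* (0.931) and *LOC102548492* (0.928), and *Sstr2* to *Slc38a4* (0.939), *Dio2* (0.919) and *Rxrg* (0.912). *Trhr* was nearest to *Grem1* (0.955), *Lix1* (0.929) and *Nell1* (0.914).

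*Drd2* was nearest to *Gpr139* (0.953), *Prlhr* (0.946), the receptor for prolactin-releasing peptide, and *Irx6* (0.937). *Drd4*, which is almost without UMIs in male L, was nearest to *Grik1* (0.885), a glutamate receptor subunit, *Mzb1* (0.874) and *LOC102552556* (0.866). *Adcyap1r1* was nearest to *Kcna2* (0.931), *Bmp5* (0.914) and *Begain* (0.910), and *Ghsr*, the gene with the fewest UMIs, to *Egfem1* (0.913), *Drgx* (0.822) and *Mybpc1* (0.805). Between the receptors themselves, *Crhr1* and *Avpr1b* were at 0.954 and *Ghrhr* and *Ghsr* at 0.717.

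Other receptors for the same or related ligands were mostly too low to test. Of 25, 2 passed the filter on low counts in the comparison of types. *Agtr1a*, an angiotensin receptor, was higher in FSC (log2 fold change 4.28) and C (4.44), and *Sstr3*, a somatostatin receptor, in G (3.53) and S (2.75). Between the sexes, *Sstr5*, a further somatostatin receptor, was higher in male S (log2 difference 1.24, SE 0.209, adjusted p = 7.58e-05). Of 15 genes for the ligands or their synthesis, 1 was tested between types: *Ddc*, which encodes the enzyme that makes dopamine from its precursor, was higher in FSC (2.43) and G (4.23). *Vip*, a peptide of the PACAP family, was higher in male S (4.22, SE 0.239, adjusted p = 9.47e-13). Only 2.24% of S expressed it, and its 498 UMIs among all final cells came from 91 cells.

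Transcripts for the proteins through which these receptors signal were called higher or lower in each of the 6 types. Among all genes tested, 18.5% were called lower in FSC, 7.92% in C, 2.61% in G, 1.89% in T, 8.09% in S and 3.78% in L, beside the shares called higher given above. Of 16 genes for Gq and calcium coupling, 13 were tested, and 6 were higher in G, where the median log2 fold change was 0.78 beside -0.01 over all genes tested. They were led by *Rgs4* (6.33), an inhibitor of G protein signalling, *Prkcb* (3.05) and *Prkcd* (2.91), both protein kinases C. In C, 7 were higher (median 0.69, beside -0.01), led by *Rgs4* (2.81), *Prkca* (2.53), a protein kinase C, and *Plcb1* (1.57), a phospholipase. In L, 1 was higher, *Plcb1* (3.97), and 4 were lower (median -1.14, beside 0.01), among them the calcium channel gene *Itpr2* (-3.99). In FSC, 3 were higher, led by *Gna14* (5.79), a Gq family subunit, and 4 lower, and in S 1 was higher and 2 lower, led by *Rgs4* (-5.62). With library size in place of TMM factors, which moved the median of all genes to 0.38 in FSC, -0.33 in S and -0.34 in L, 5 were lower in S and 6 in L, 4 were higher and 3 lower in FSC, and 7 were higher in C and 6 in G.

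All 13 genes for Gi and Go coupling were tested, and 6 were higher in L, the type with the dopamine receptors (median 0.83, beside 0.01 over all genes). Among them were *Gnai1* (2.73) and *Gnaz* (1.75), inhibitory G protein subunits, and the potassium channel genes *Kcnj6* (1.66) and *Kcnj3* (1.23). L was not the highest type for either channel in CPM. *Kcnj6* stood at 26.2 in L, 26.6 in S and 46.4 in T, and *Kcnj3* at 15.4 in L, 15.8 in S and 16.2 in C. Hormone genes lower the CPM in L, S and C, so the small gaps are not read as an order. In S 3 were higher, led by *Kcnj5* (3.37), another such channel, and in T 2 were higher, *Kcnj5* (3.96) and *Kcnj6* (1.95). In C 4 were higher and 2 lower, led by *Kcnj9* (4.07). In FSC 3 were higher and 6 lower, and in G 3 were lower. With library size 4 were higher in L, with a median of 0.51, 1 was lower in G, 5 were higher and 2 lower in C, 3 higher and 1 lower in S, and 3 higher and 5 lower in FSC.

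Of 20 genes for Gs and cAMP coupling, 16 were tested. In C 5 were higher and 2 lower, led by the adenylyl cyclase *Adcy2* (3.38) and the phosphodiesterase *Pde4d* (2.54). In S 4 were higher, among them *Prkar2b* (1.38), a regulatory subunit of protein kinase A, and *Adcy2* (1.22). In CPM, *Adcy2* stood at 11.4 in S, beside 48.1 in C, 14.8 in T and 13.2 in FSC. *Gh1* lowers the CPM in S, so the order of S, T and FSC is not read from these values. In G *Adcy5* was higher (3.05) and 3 were lower, led by *Adcy2* (-3.64). In L 3 were higher and 1 lower, among them *Gnas* (1.41), which encodes the Gs subunit, and the lower gene was *Adcy2* (-3.01), and in T 1 was higher, *Pde4b* (2.62). In FSC 2 were higher and 8 lower. These counts depend on the scaling: with library size, 2 were higher and 3 lower in S, 1 higher and 2 lower in L, 4 higher and 6 lower in FSC, and 4 higher and 2 lower in C. Among 10 genes that modulate receptors, 8 were tested, and 3 were higher and 1 lower in FSC, 2 higher in C, 2 in G, 1 higher and 2 lower in S, and 2 lower in L. *Mrap2*, an accessory protein of receptors, was higher in C (4.53), and the arrestins *Arrb1* and *Arrb2* in FSC (3.46) and G (3.87).

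The same lists also held sex differences, in types with and without a receptor called between the sexes. In male S, *Rgs2* (1.94), an inhibitor of G protein signalling, *Adcy2* (0.93), *Crem* (0.80), a cAMP-responsive transcription factor, *Prkacb* (0.53) and *Gnas* (0.28) were higher and *Prkce* was lower (-0.73). In male G, the potassium channel gene *Kcnj6* was higher (3.01, SE 0.476) and *Rgs4* lower (-1.73, SE 0.153). In male L, *Mrap2* (2.95), *Rgs16* (1.36), *Rgs2* (1.06), *Prkacb* (0.67) and *Prkar1a* (0.55), a regulatory subunit of protein kinase A, were higher, and *Gnai2* (-0.61) and *Gnas* (-0.48) lower. With library size *Prkacb* stood at 1.33 and *Prkar1a* at 1.21, and the lower genes turned to 0.05 (*Gnai2*) and 0.17 (*Gnas*). In FSC, where no receptor was called between the sexes, *Rgs16* (1.65) and *Rgs2* (0.73) were higher in males. In C, *Crem* was lower in males (-1.40, SE 0.0929), the only gene of the coupling lists called there.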

How the data were processed

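Cells of 1 female and 1 male pool were counted on 2 lanes each. The authors deposited UMI counts per gene and cell, whole numbers made with Cell Ranger 2.1 against an NCBI rat reference with 3′ ends extended by up to 4 kb, and brought the lanes to equal numbers of mapped reads when joining them. A cell's lane was read from its barcode. Classification, imputation, outlier limits and doublet calls followed the study's methods, with its marker rules less the 5 receptors; 186 cells were called doublets. The marker written *Col1a3* was not found under that symbol and was left out. Sums of counts per type and lane were tested with edgeR 4.0.16 (quasi-likelihood, TMM factors, minimum count 10, R 4.3.3), and p-values were adjusted over all genes tested in a contrast. Between types, lane was a covariate, Le and EC were in the fit and E was left out, since globin fills its libraries. Shares carry Clopper-Pearson 95% intervals, which like the intervals of ratios cover counting error only; a count of 0 allows up to 3. The fits were also run on simulated counts with the same dispersion for all genes and no difference between pools. Only genes with more UMIs than *Trhr* in T or *Adcyap1r1* in G were changed there. Those runs therefore do not bear on receptors with so few UMIs or on differences between pools. The receptors and gene lists were chosen with earlier results of these data known. Named from the lists were genes called in a contrast, at most 6 per list and contrast by size of log2 fold change, and for each receptor the 3 most alike genes found in at least 30 cells. Alternatives included DESeq2 1.42.0, library size, other filters and rules, thinning to 2000 UMIs and leaving out each lane. RefSeq promoters came from GRCr8, and no genome of the authors' build was used here.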

Additional observations from a re-analysis of the deposited data

Results flagged for a closer look

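Differences between cell types in the effect of sex drew attention to *Adcyap1r1* and *Drd4*. The male minus female log2 difference of *Adcyap1r1* in G exceeded the mean of the other 5 types by 5.16 and their sum by 4.02. That mean includes T and L, which held few UMIs of this receptor. In FSC, where G is part of the sum, the difference was -1.52. For *Drd4* it was -7.08 in L and 6.95 in S, each against the sum of the other 5 types, and these mirror each other because each sum holds the other type. Each of these passed a test of the difference itself with edgeR at an adjusted p below 0.001, and the comparisons with sums were chosen after seeing the data.

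Cells outside the comparisons also held receptor UMIs above the level in E, Le and EC. In melanotrophs *Drd2* stood at 197.5 and *Crhr1* at 29.78 CPM. *Adcyap1r1* stood at 127.5 in pericytes. In the 55 posterior pituitary cells it stood at 16.33, but 4 of its 10 UMIs came from the 3 female cells of lane 1, and without that lane it was 10.6. It was 25.0 without lane 4, and the male lanes held 15.2 and 6.83.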

How the results depend on the processing

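Of 11 receptor and type combinations called higher between types, 5 were called with cells thinned to 2000 UMIs, and 11 to 12 when a lane was left out; the other alternatives, among them DESeq2 and library size, stayed within 1.5 times. Of 3 called between the sexes, 5 were called at a limit of 0.05 and 0 after thinning, and 3 to 4 when a lane was left out. For the sex difference that depends on the type, 1 was called, 2 with no filter on low counts, 2 at a limit of 0.05, 4 against the sum of the other types, 0 with the rules of the study as written and 0 after thinning, and 0 to 1 when a lane was left out (0 without lane 2 and without lane 4; without lane 1 the call was *Gnrhr* in T, not *Adcyap1r1* in G). Of 14 combinations with at least 5% of cells expressing, 8 had a UMI in at least 5% of thinned cells, and 13 to 14 had 5% of cells expressing when a lane was left out. The cause of these changes was not tested, apart from the fewer UMIs that thinning leaves.

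Signs turned only for sex differences that were not called, the largest of them *Trhr* in L at -0.534 (SE 0.355) with TMM factors. With library size these were *Gnrhr* in G (0.156), *Trhr* in L (0.12), *Drd2* in L (0.565) and *Avpr1b* in FSC (0.0336); *Avpr1b* in FSC also turned with no filter (0.00504) and with outliers kept (0.405), and *Adcyap1r1* in FSC after thinning (0.0251). When a lane was left out, *Avpr1b* in FSC reached 0.339 and 0.218, *Gnrhr* in G 0.0157, *Avpr1b* in S 0.0548, *Adcyap1r1* in S -0.194 and -0.0201, and *Drd2* in L 0.0944. Library size moved the median of all genes in L from 0.0188 to 0.673, and the calls there from 477 higher and 966 lower in males to 2356 and 323. The corresponding calls in G went from 130 and 172 to 277 and 128. The comparisons with summed types and the removal of 1 T cell were chosen after seeing the data. No paired analysis was possible because the columns carry no replicate number that could be matched between the sexes. Erythrocytes kept, sums per sex and 1 fit over all types left every count within 1.5 times.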
